A study of Mus musculus with 12 samples.

Results

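Principal cells take up water and sodium in the collecting duct of the kidney, and 10 genes that mark them are described here. A gene was a member when its symbol in the deposited count table equalled Avpr2, Aqp2, Aqp3, Aqp4, Hsd11b2, Scnn1a, Scnn1b, Scnn1g, Gata3 or Elf5. All 10 symbols were found among the 36186 entries of that table. Reads of all 10 members were present in all 12 libraries, the fewest being 183 reads of Avpr2 in a single library, and all 10 passed the filter on low counts in every comparison.

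RNA of whole mouse kidneys at E18.5 was sequenced in 12 libraries, 3 for each of 4 genotypes on a mixed 129/CD1 background. Wild type libraries carry the replicate numbers 30, 37 and 55. Kidneys labelled Hoxa9,10,11-/- HoxC9,10,11+/- are called Hoxa-null Hoxc-het (replicates 20, 31 and 33), and those labelled Hoxa9,10,11+/- HoxC9,10,11-/- are called Hoxa-het Hoxc-null (AhCk_38, AhCk_110 and AhCk_115). Kidneys labelled Hoxa9,10,11-/- HoxC9,10,11-/- are called double mutant (replicates 24, 27 and 29). The labels give Hoxa11 as lost in the double mutants, whereas the study's text contradicts this and gives the sequenced double mutants Hoxa11 either heterozygous or wild type. The groups here are named by the labels, and loss of Hoxa11 in the double mutants is not assumed below. The Hoxa-het Hoxc-null libraries were of the sequencing run labelled run1646 and the other 9 of run1008, so that for this group genotype and run cannot be told apart. Counts on genes ranged from 28616877 in Hoxa-null Hoxc-het library 20 to 47067903 in Hoxa-het Hoxc-null library AhCk_110, with a median of 39328488. Levels are given below in CPM, counts relative to a fixed library total after scaling the 12 libraries by the trimmed mean of M values.

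As background, vasopressin reaches principal cells from the blood and binds the receptor Avpr2, whose signal through cyclic AMP moves the water channel Aqp2 into the apical membrane. Water leaves through Aqp3 and Aqp4 on the basolateral side. Aldosterone acts through the mineralocorticoid receptor to raise sodium entry through the epithelial sodium channel ENaC, built from the products of Scnn1a, Scnn1b and Scnn1g, while Hsd11b2 inactivates glucocorticoids that would otherwise occupy that receptor.

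The targeted Hox genes, which carry frameshift mutations, were read in all 12 libraries, so that the presence of reads over these genes does not check the genotype labels. Hoxa9 averaged 25 ± 1.19 CPM (SD, n = 3) in wild type and 25.4 ± 1.33 CPM in double mutant kidneys. Hoxa11 averaged 52.2 ± 7.77 and 42.7 ± 8.81 CPM in the same groups, Hoxc9 12.9 ± 2.35 and 10.7 ± 0.346 CPM, and Hoxc11 1.66 ± 0.147 and 1.06 ± 0.173 CPM. Hoxa10 (147 ± 20 and 105 ± 5.82 CPM) and Hoxc10 (58.6 ± 8.35 and 34.2 ± 4.57 CPM) were lower in double mutants, with log2 fold changes of -0.49 and -0.78 and adjusted p-values of 0.027 and 0.0127 from the edgeR quasi-likelihood test after Benjamini-Hochberg adjustment, and all 3 double mutant libraries lay below all 3 wild type libraries for each of them. Hoxc9 (10.4 to 11.1 against 11.4 to 15.6 CPM) and Hoxc11 (0.892 to 1.24 against 1.56 to 1.83 CPM) were separated likewise. They did not pass, with edgeR adjusted p-values of 0.23 and 0.103. The study gives each mutated Hoxc gene a deletion in its first exon, and its part in these counts was not tested. In the Hoxa-null Hoxc-het and Hoxa-het Hoxc-null groups Hoxa9 averaged 31.5 ± 8.04 and 30.9 ± 1.21 CPM, Hoxa10 121 ± 27.8 and 110 ± 5.66 CPM, and Hoxa11 49.1 ± 5.07 and 56.1 ± 4.73 CPM. Library 20 of the former group held the highest Hoxc9, Hoxc10 and Hoxc11 of the 12 libraries, at 32.7, 121 and 2.94 CPM. In the same order of groups Hoxc9 averaged 19 ± 11.9 and 11.4 ± 2.4 CPM, Hoxc10 69.2 ± 44.7 and 40.1 ± 10.2 CPM, and Hoxc11 1.94 ± 0.87 and 1.54 ± 0.45 CPM. Without library 20 the Hoxa-null Hoxc-het means were 26.9 CPM for Hoxa9, 105 for Hoxa10, 52 for Hoxa11, 12.2 for Hoxc9, 43.5 for Hoxc10 and 1.44 for Hoxc11 (n = 2).

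Hoxa-null Hoxc-het library 20 stood apart from the other 11 libraries. Of 16260 genes it held the highest CPM of all 12 libraries for 29.9% and the lowest for 29%, against 15% and 16.5% for the next such library, double mutant 27. Its median Pearson correlation with the other libraries over these genes was 0.948, where the rest had 0.969 to 0.981. It held the lowest level of 5 members (Avpr2, Aqp3, Scnn1a, Scnn1b and Scnn1g) and the highest of Gata3 and Hsd11b2. The nephron progenitor list described further on was highest in this library, at a summed 491 CPM, and the proximal tubule list lowest, at 675 CPM. Fold changes and counts of members called in comparisons of this group are therefore given with and without it, and so are fits in which it enters only the estimate of spread or of a covariate. Sums and levels by group include it where nothing else is said. Wild type library 30 was also nearer to Hoxa-null Hoxc-het libraries 33 and 31 than to wild type 37 and 55 by chi-square per degree of freedom between counts (13.8 and 15.2 against 47.3 and 63.7), while its correlations of log2 CPM with them were 0.988 and 0.987 against 0.987 and 0.984.

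Avpr2, the vasopressin receptor, lies on the X chromosome at chrX:73891765-73894428 (RefSeq gene position, as for all members, in mouse build GRCm38, the mm10 of the deposited table). It stood at 11, 12 and 13.2 CPM in wild type kidneys and at 7.45, 9.48 and 9.26 CPM in double mutants. The Hoxa-null Hoxc-het libraries 20, 31 and 33 gave 7.07, 10.3 and 9.87 CPM, and the Hoxa-het Hoxc-null libraries AhCk_38, AhCk_110 and AhCk_115 gave 10, 10 and 7.82 CPM. All 9 mutant libraries thus lay below the lowest wild type library, while the mutant groups overlapped each other. Of all genes tested, 20.8% lay wholly below wild type in double mutant, 4.77% in Hoxa-null Hoxc-het and 15.3% in Hoxa-het Hoxc-null kidneys. The share that did so in all 9 mutant libraries was not computed, and the 3 groups were set against the same wild type libraries. Group means were 12.1 ± 1.09 CPM (SD, n = 3) in wild type, 9.08 ± 1.75 in Hoxa-null Hoxc-het (10.1 without library 20), 9.29 ± 1.27 in Hoxa-het Hoxc-null and 8.73 ± 1.12 in double mutant kidneys. The GENCODE gene, used for exon bases and CPM per kilobase, reaches from 73892102 to 73895502. Of its 2886 exon bases, 2347 (81.3%) also belong to exons of Arhgap4 on the opposite strand, and the sources used here do not state whether reads were counted by strand. Arhgap4 itself averaged 5.58 CPM in wild type and 5.29 CPM in double mutants, a log2 fold change of -0.08 (edgeR quasi-likelihood, Benjamini-Hochberg adjusted p = 0.761). In Hoxa-null Hoxc-het kidneys it averaged 4.19 CPM, a log2 fold change against wild type of -0.41 (SE 0.16, edgeR adjusted p = 1) and of -0.43 without library 20, beside -0.41 and -0.26 for Avpr2 itself. In Hoxa-het Hoxc-null kidneys it averaged 6.11 CPM (0.14, edgeR adjusted p = 0.595). The other 8 members apart from Avpr2 and Gata3 share no exon position with another gene.

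Aqp2, the water channel that vasopressin directs to the apical membrane, lies at chr15:99579056-99584545. Its wild type libraries gave 183, 202 and 269 CPM and its double mutant libraries 207, 241 and 162 CPM. The Hoxa-null Hoxc-het libraries 20, 31 and 33 gave 218, 148 and 150 CPM, and the Hoxa-het Hoxc-null libraries gave 215, 161 and 161 CPM. Each mutant group overlapped wild type. The promoter of Aqp2 is shown because this gene had the highest level per length of the 10 members and its window held a match to the GATA word, the word that transcription factors of the family of Gata3 bind.
Aqp2 promoter, chr15:99578806-99579055, plus strand, 5′ to 3′: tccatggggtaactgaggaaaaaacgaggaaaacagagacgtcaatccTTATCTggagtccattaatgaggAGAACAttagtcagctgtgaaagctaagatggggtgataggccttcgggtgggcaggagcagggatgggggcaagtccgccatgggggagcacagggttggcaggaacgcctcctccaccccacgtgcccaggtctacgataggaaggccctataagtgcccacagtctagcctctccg
Capitals mark matches on the minus strand to the GATA word from -202 to -197 relative to the RefSeq start, and to the steroid receptor word from -179 to -174. The words searched on both strands were AGATAA for GATA factors, TGTTCT for steroid receptors, TGACGTCA for the cyclic AMP response element, TTTATGG for posterior Hox proteins and TATAAA for the TATA box. In that order they occur in 9.99, 16.1, 1.55, 2.43 and 12.4% of 32851 promoter windows of 250 bases in the RefSeq table (GRCm38.p6), and a match is a description of letters, not a shown binding site. That table held 8 entries for 7 members, with Elf5 listed for a pair of starts and no entry for Aqp4, Scnn1a and Hsd11b2. Of the 8 windows 1 held the GATA word, 2 the steroid receptor word, 2 the TATA word, and 0 the cyclic AMP or Hox words.

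Aqp3, a basolateral water channel, lies at chr4:41092724-41098183. It gave 69.4, 68 and 84.8 CPM in wild type and 64.6, 72.9 and 64.7 CPM in double mutant kidneys, with 48.8, 63.8 and 59.1 CPM in Hoxa-null Hoxc-het and 70.7, 66.9 and 57.3 CPM in Hoxa-het Hoxc-null kidneys. The Hoxa-null Hoxc-het libraries were all below wild type and also below the double mutants. Aqp4, the other basolateral channel, lies at chr18:15389394-15410982 and gave 45.9, 42.6 and 42.3 CPM in wild type and 43.4, 48.4 and 48.8 CPM in double mutants. Its Hoxa-null Hoxc-het libraries 20, 31 and 33 gave 33.5, 52 and 46.3 CPM, on either side of wild type, and its Hoxa-het Hoxc-null libraries gave 37, 35.2 and 32.4 CPM, all below wild type.

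Hsd11b2, the enzyme that protects the mineralocorticoid receptor from glucocorticoids, lies at chr8:105518746-105523988. Its levels were 76, 87.8 and 83.8 CPM in wild type and 66.3, 81.2 and 79.9 CPM in double mutants. The Hoxa-null Hoxc-het libraries 20, 31 and 33 gave 107, 78.8 and 72.3 CPM, and the Hoxa-het Hoxc-null libraries 75.5, 79.6 and 81.5 CPM. The groups overlapped, with library 20 above the remaining 11.

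Scnn1a, the alpha subunit of ENaC (chr6:125314271-125344943), gave 62.3, 47.7 and 56.7 CPM in wild type and 46.2, 75 and 56.4 CPM in double mutants. Its Hoxa-null Hoxc-het libraries 20, 31 and 33 gave 25.1, 59 and 51.3 CPM, and its Hoxa-het Hoxc-null libraries gave 62.2, 52.7 and 36.6 CPM. Library 20 was the only Hoxa-null Hoxc-het library below the wild type range. The beta and gamma subunit genes lie near each other on chromosome 7, Scnn1b at chr7:121865038-121918728 and Scnn1g at chr7:121734420-121768482. Scnn1b gave 89.7, 82.2 and 80.2 CPM in wild type, 42.4, 78.8 and 81.5 CPM in Hoxa-null Hoxc-het, 78.3, 91.1 and 68.3 CPM in Hoxa-het Hoxc-null and 71.5, 96.1 and 89.8 CPM in double mutant kidneys. Scnn1g gave 71.6, 57.4 and 59.9 CPM in wild type, 29, 65.2 and 61 CPM in Hoxa-null Hoxc-het, 61.7, 65.2 and 50.9 CPM in Hoxa-het Hoxc-null and 44.7, 60.2 and 50.2 CPM in double mutant kidneys. For both genes every mutant group overlapped wild type, and library 20 was the lowest of the 12. Against the wild type mean, library 20 was at log2 -1.15 for Scnn1a, -0.99 for Scnn1b and -1.12 for Scnn1g.

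Because the channel is assembled from the 3 subunits, their shares of the summed ENaC level in CPM per kilobase of exon were also compared within each library. Scnn1b held 45.3 to 52.8%, Scnn1g 26 to 33% and Scnn1a 17.1 to 24.3% of the sum. The share of Scnn1g was 28, 26.9 and 26% in double mutant libraries 24, 27 and 29, below the 30.4 to 33% of the other 9 libraries. That difference in share is a description and was not tested. The sum itself was 31.9 CPM per kilobase in Hoxa-null Hoxc-het library 20 and 51.8 to 74.8 in the other 11 libraries, so library 20 was low in the sum while its shares, 19.1, 50.5 and 30.4% for Scnn1a, Scnn1b and Scnn1g, lay within the range of the others.

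Gata3, a zinc finger transcription factor of the ureteric lineage, lies at chr2:9857078-9887953. It stood at 67.9, 77.2 and 83.6 CPM in wild type and at 44.5, 46.3 and 54.8 CPM in double mutant kidneys. The Hoxa-null Hoxc-het libraries 20, 31 and 33 gave 83.8, 61.5 and 58.2 CPM, and the Hoxa-het Hoxc-null libraries AhCk_38, AhCk_110 and AhCk_115 gave 61.1, 69.1 and 59.8 CPM. The double mutants were the lowest 3 of the 12 libraries and overlapped no other group. Group means were 76.2 ± 7.86 CPM (SD, n = 3) in wild type, 67.8 ± 13.9 in Hoxa-null Hoxc-het (59.9 without library 20), 63.3 ± 4.99 in Hoxa-het Hoxc-null and 48.5 ± 5.52 in double mutant kidneys. The promoter window of Gata3 is shown because this member differed most between double mutant and wild type kidneys, and it held 0 matches to the 5 words searched, so no letter is in capitals.
Gata3 promoter, chr2:9878601-9878850, minus strand, 5′ to 3′: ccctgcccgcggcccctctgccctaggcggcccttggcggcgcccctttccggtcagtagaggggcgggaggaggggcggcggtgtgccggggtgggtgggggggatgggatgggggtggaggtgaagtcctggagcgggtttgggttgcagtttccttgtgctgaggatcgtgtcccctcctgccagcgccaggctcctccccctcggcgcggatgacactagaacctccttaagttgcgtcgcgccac
This window lies before the start listed in the RefSeq promoter table, yet inside the RefSeq gene position given above and the longer GENCODE gene. It also lies inside an exon of the antisense gene Gm13256, which the count table does not list. Gata3 shares 155 of its 3978 exon bases (3.9%) with Gm13256 and 77 (1.94%) with 9230102O04Rik on its own strand. The latter averaged 1.86 CPM in wild type and fell to 0.911 CPM in double mutants (log2 fold change -1.03, SE 0.25, edgeR quasi-likelihood, Benjamini-Hochberg adjusted p = 0.0351).

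Elf5, an ETS family transcription factor of principal cells, lies at chr2:103412098-103450989 and was less abundant. It stood at 28.4, 29.9 and 28 CPM in wild type and at 19.4, 16 and 23.1 CPM in double mutants. The Hoxa-null Hoxc-het libraries gave 23.7, 21 and 21.2 CPM and the Hoxa-het Hoxc-null libraries 20.8, 22.9 and 17.5 CPM. All 9 mutant libraries lay below all 3 wild type libraries, and the mutant groups overlapped each other. As for Avpr2, the share of all genes below wild type in all 9 was not computed. The means were 28.8 ± 1.01 CPM (SD, n = 3) in wild type, 22 ± 1.52 in Hoxa-null Hoxc-het (21.1 without library 20), 20.4 ± 2.73 in Hoxa-het Hoxc-null and 19.5 ± 3.57 in double mutant kidneys.

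**Figure D1:**
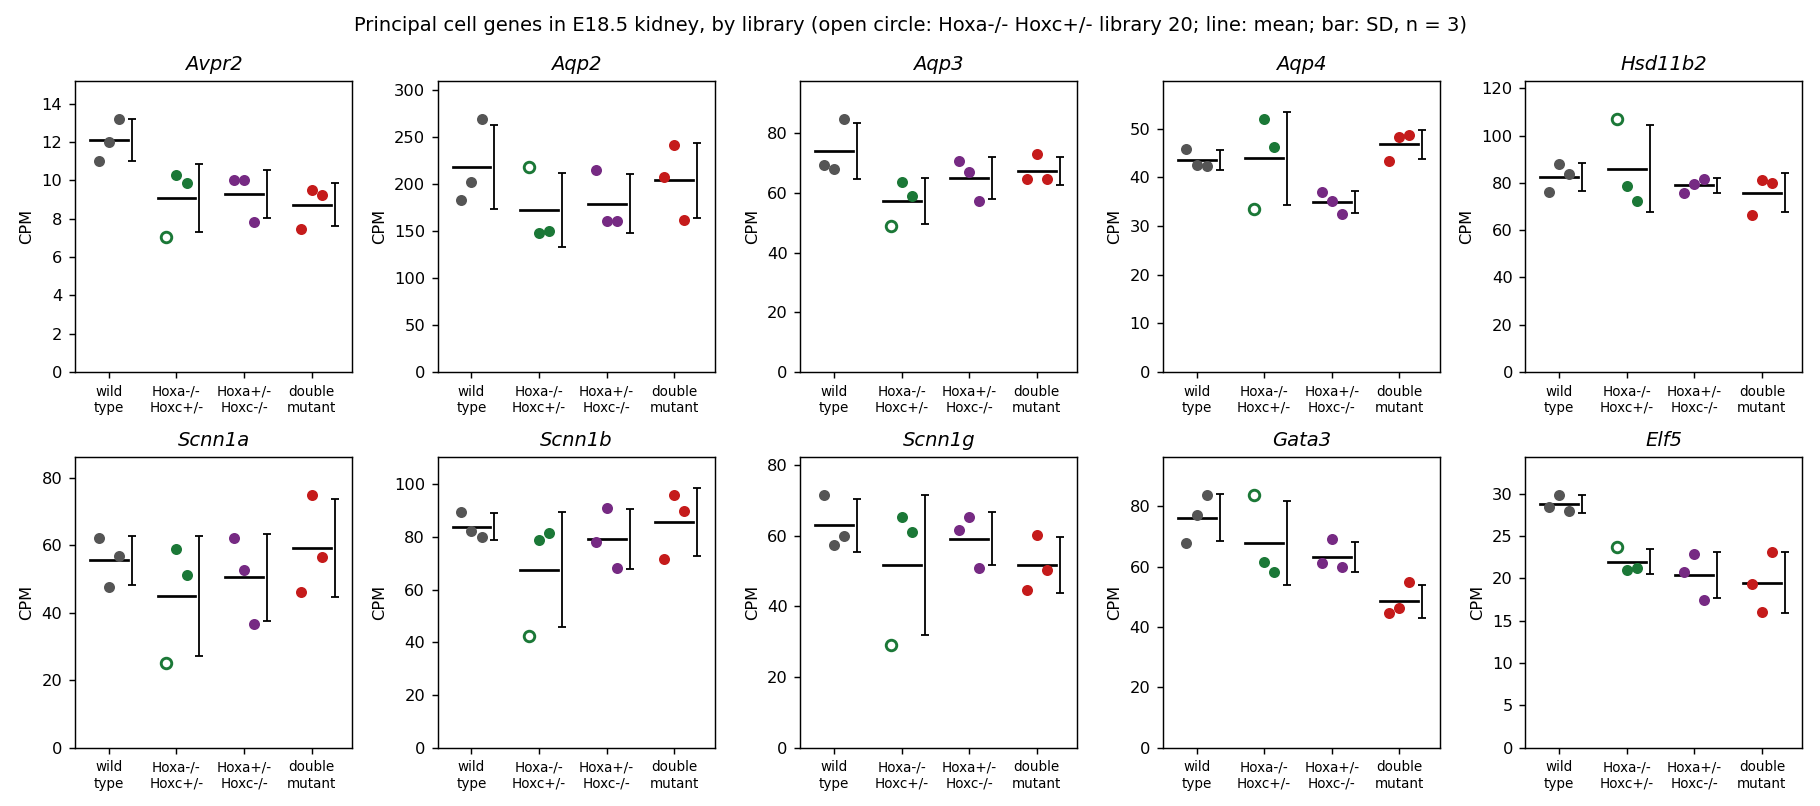
Level of each of the 10 members in CPM in each library, by genotype, with the group mean and SD (n = 3). Gata3 is lowest in the 3 double mutant libraries (44.5 to 54.8 CPM), Avpr2 and Elf5 are below wild type in all 9 mutant libraries, and Hoxa-null Hoxc-het library 20 holds the lowest Scnn1a, Scnn1b and Scnn1g. The share of all genes below wild type in all 9 was not computed.

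Levels of different genes were ranked in CPM per kilobase of exon. In wild type kidneys the mean level per kilobase was 154 for Aqp2, 44.8 for Hsd11b2, 40.5 for Aqp3, 31.9 for Scnn1b, 21 for Scnn1g, 19.2 for Gata3, 13.4 for Scnn1a, 6.99 for Aqp4, 4.9 for Elf5 and 4.18 for Avpr2. Aqp2 ranked the highest and Aqp4 at place 8 in all 12 libraries. Hsd11b2 and Aqp3 shared places 2 and 3, and Elf5 and Avpr2 places 9 and 10, in an order that varied between libraries. Gata3 was the most mobile in rank, between places 4 and 7. Between its lowest and highest library a member varied by a ratio of 1.6 (Aqp4) to 2.99 (Scnn1a), and the 3 ENaC genes, at 2.26 to 2.99, had their lowest library in library 20.

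**Figure D2:**
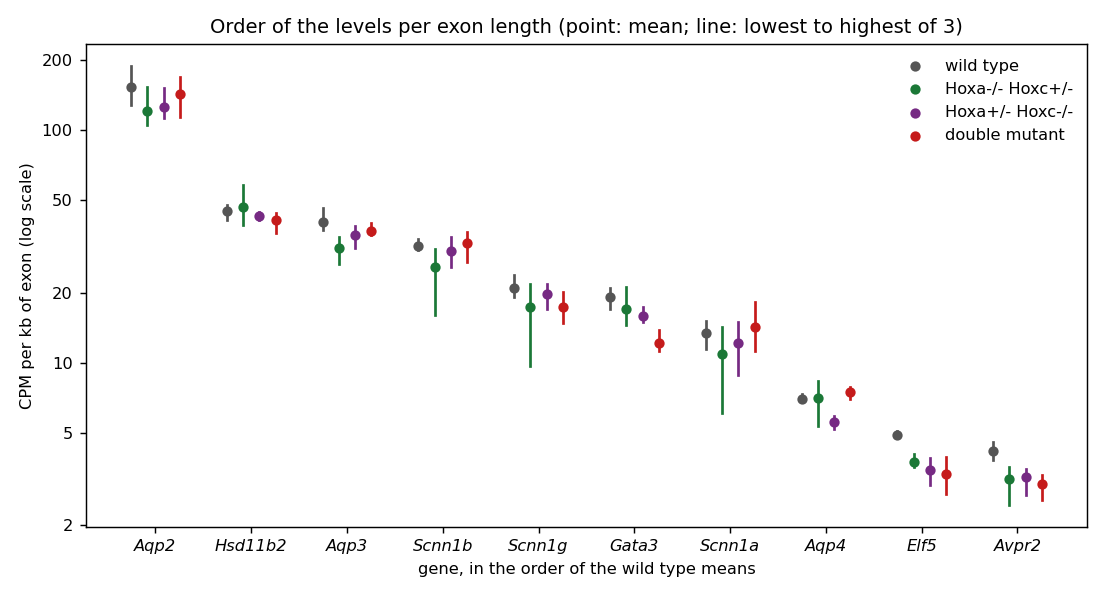
Levels of the 10 members in CPM per kilobase of exon, on a log axis, by genotype, with the group mean and a line from the lowest to the highest library. Aqp2 lies above all other members in every library, and Elf5 and Avpr2 lie below them.

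The double mutant against the wild type asks how RNA levels differed when Hox genes of both clusters were mutated. These were Hoxa9 and Hoxa10 with Hoxc9,10,11, while homozygous loss of Hoxa11 is given only by the labels. Gata3 and Elf5 fell, to 0.636 and 0.677 of their wild type level. The water channels, Hsd11b2 and the ENaC subunits did not pass the test, and Avpr2 was lower in each double mutant library than in each wild type library but missed the threshold. In bulk RNA fewer cells of a type and less RNA per cell cannot be told apart, and reads of a gene can come from any kidney cell that expresses it. Gata3 had a log2 fold change of -0.65 (SE 0.11, 95% interval -0.91 to -0.40, adjusted p = 0.0113, edgeR quasi-likelihood with Benjamini-Hochberg adjustment over 15839 genes), lower in 3 of 3 double mutant libraries. Elf5 had a log2 fold change of -0.56 (SE 0.14, 95% interval -0.88 to -0.25, adjusted p = 0.0347, same edgeR test), also lower in 3 of 3. Both are transcription factors, and edgeR called no receptor, channel or enzyme gene of the list, although the receptor gene Avpr2 passed in 6 of the alternatives given below. Avpr2 had a log2 fold change of -0.47 (SE 0.14, 95% interval -0.79 to -0.14, edgeR adjusted p = 0.0634). Scnn1g had -0.28 (SE 0.13, edgeR adjusted p = 0.175), and the remaining members lay between -0.14 for Aqp3 and 0.10 for Aqp4, with Hsd11b2 at -0.12, Aqp2 at -0.10, Scnn1a at 0.09 and Scnn1b at 0.03. The sign of Scnn1b turned to -0.03 when libraries were scaled by size alone.

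At an adjusted p below 0.05, 2 of 10 members were lower, where 7.4% of all 15839 genes tested were lower, and 0 were higher, where 6.31% of all genes were. At an unadjusted p below 0.05 there were 3 lower members and 16.8% of all genes lower, and 0 higher members where 15.6% of all genes were. DESeq2 called 3 members lower and 0 higher, where 9.34% of 16954 genes were lower and 10% higher, and limma on the deposited log2 values called 0 members, with 0.196% of its 36186 genes lower and 0.224% higher. The median log2 fold change was -0.13 over the members and -0.008 over all genes. The members' call rests on few libraries. Without wild type 37 the edgeR adjusted p was 0.0586 for Gata3 and 0.129 for Elf5, which left 0 members called. Of all genes 262 of 15989 were then lower, against 1172 of 15839 with all libraries of the comparison. Elf5 also missed the threshold without wild type 55 (edgeR adjusted p = 0.0991), double mutant 24 (0.0999) or double mutant 27 (0.0616), each of which left Gata3 as the 1 member called. In that order 311 of 16031, 360 of 16018 and 628 of 16000 genes were lower, so the count over all genes fell too. Gata3 and Elf5 kept their negative sign in 17 of 17 alternatives, 3 of which were added after seeing the data and leave out Hoxa-null Hoxc-het library 20. Over these the log2 fold change of Gata3 ranged from -0.77 to -0.58 with adjusted p-values from 2.68e-05 (DESeq2) to 0.129 (limma), and it passed in 13 of them. That of Elf5 ranged from -0.70 to -0.44 with adjusted p-values from 0.00362 (DESeq2) to 0.212 (limma), and it passed in 10. Avpr2 ranged from -0.66 to -0.36 and passed in 6 alternatives, namely library size alone (edgeR adjusted p = 0.0451), DESeq2 (0.0308), a 12-library edgeR fit with Xist as a covariate (0.037) and the 3 added edgeR fits (0.0371, 0.0391 and 0.0375). In these added fits, of 11 libraries, of 11 with Xist as a covariate and of the 8 of run1008, Gata3 (edgeR adjusted p = 0.00197, 0.00444 and 0.0047), Elf5 (0.0149, 0.0307 and 0.0176) and Avpr2 were all called lower, beside 1832 of 16452, 990 of 16452 and 1623 of 16252 genes lower, where the fit of all 9 libraries of run1008 called 0 members and 371 of 16034 genes lower.

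All 3 wild type libraries were low in Xist, the X-linked RNA made by female cells, at 0.0495 to 0.138 CPM, whereas double mutants 27 and 29 stood at 72.6 and 60.1 CPM and double mutant 24 at 0.104 CPM. Xist was also high in Hoxa-null Hoxc-het libraries 31 and 33 (190 and 253 CPM) and Hoxa-het Hoxc-null library AhCk_110 (336 CPM), and at or below 0.104 CPM in the other mutant libraries. With Xist as a covariate the edgeR adjusted p was 0.0607 for Gata3 and 0.0656 for Elf5, so neither passed, and the log2 fold changes were -0.61 and -0.58. Without Hoxa-null Hoxc-het library 20 in that fit both passed, at -0.77 and -0.65, so that the loss of these calls depended on a library of neither group. With all 12 libraries in the Xist fit Aqp2 moved to 0.08, Aqp4 to -0.04, Scnn1a to -0.25 and Scnn1b to -0.29, each with its sign turned, and Scnn1g moved from -0.28 to -0.60 (edgeR adjusted p = 0.116). Without library 20 these were 0.00 for Aqp2, 0.05 for Aqp4, -0.07 for Scnn1a, -0.18 for Scnn1b and -0.44 for Scnn1g (edgeR adjusted p = 0.0792).

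For the counts over all genes, 1172 genes were lower and 999 higher in the double mutants with the trimmed mean of M values, against 1649 lower and 742 higher with library size alone, so that the division by direction depends on the scaling. The 2171 genes called became 3386 without wild type 30, 535 without wild type 37, 633 without wild type 55, 793 without double mutant 24 and 1101 without double mutant 27. As 3 against 3 libraries, Avpr2, Gata3 and Elf5 lay wholly below wild type, 3 of 10 members where 20.8% of all genes did. Fewer libraries overlap less, and this count was 5 without double mutant 27 (Aqp3 and Scnn1g in addition), where 24.3% of all genes did. Wholly above lay 0 members with all libraries, 1 without wild type 30 (Aqp4, with 28.9% of all genes) and 2 without double mutant 24 (Aqp4 and Scnn1b, with 20.7%).

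**Figure D3:**
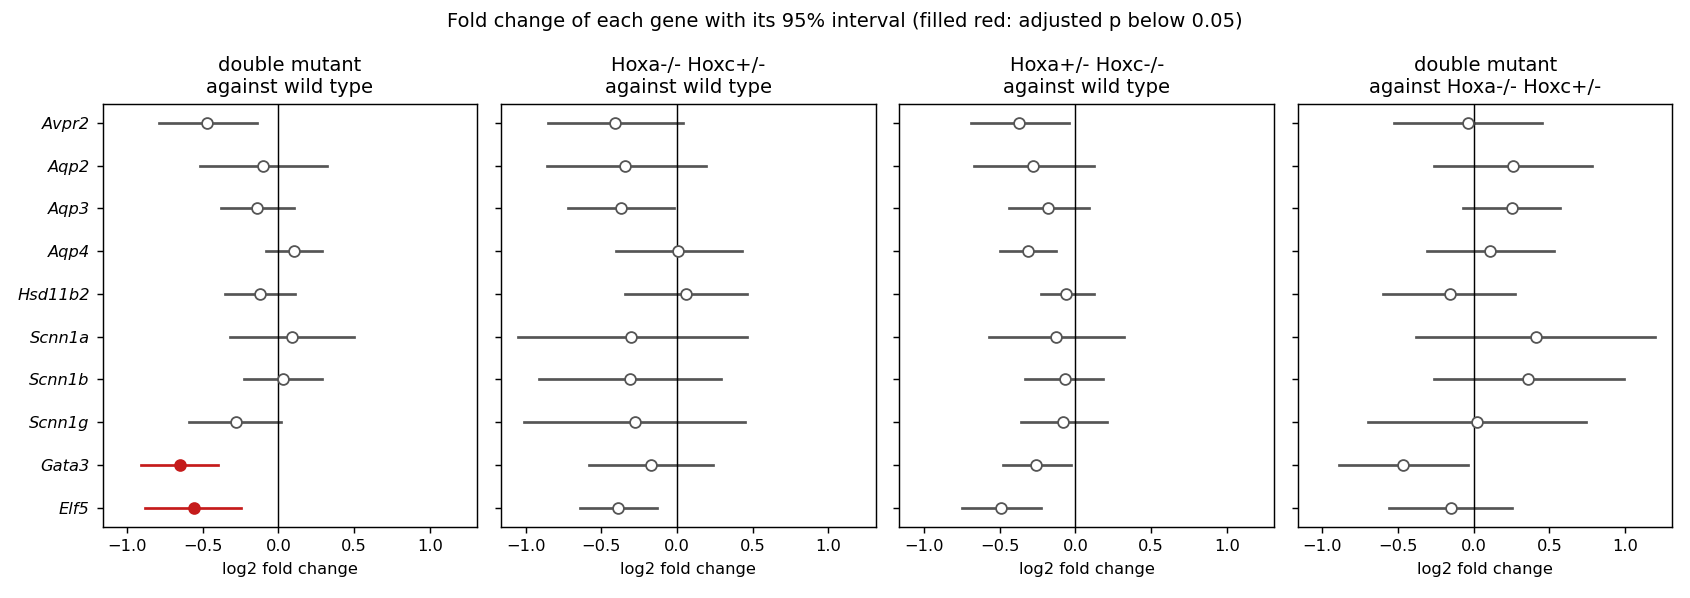
Log2 fold change of each member in the 4 comparisons with its 95% interval from the edgeR standard error and degrees of freedom; the first group named is compared with the second. Gata3 (-0.65) and Elf5 (-0.56) in double mutant against wild type kidneys are the values past the threshold.

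The Hoxa-null Hoxc-het kidneys against the wild type ask about loss of the Hoxa group with a single mutated Hoxc copy, and this comparison shares its wild type libraries with the preceding one. Elf5 was lower in all 3 libraries, at 0.764 of wild type, and Aqp3 and Avpr2 were lower in all 3 at 0.773 and 0.754, but no member passed the test. edgeR called 0 of 10 members, and 0% of the 15789 genes tested. At an unadjusted p below 0.05 the counts were 360 genes and 2 members, Aqp3 and Elf5, both lower where 1.46% of all genes were lower and 0.817% higher. DESeq2 called 0 members and 18 genes (0.0359% lower and 0.0564% higher), and limma 0 members and 1 gene (0.00276% lower). Without library 20 edgeR called 8 genes and 0 members, and the unadjusted counts were 1813 genes (11.4% of 15967) and 4 members, Aqp2, Aqp3, Gata3 and Elf5. Elf5 had a log2 fold change of -0.39 (SE 0.11, edgeR adjusted p = 1) with library 20 and -0.45 (SE 0.08, edgeR adjusted p = 0.339) without it. Aqp3 stood at -0.37 (SE 0.15) with it and -0.27 (SE 0.11) without it, and Avpr2 at -0.41 (SE 0.18) and -0.26 (SE 0.12).

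Several differences in this group rested on library 20. Scnn1a, Scnn1b and Scnn1g had log2 fold changes of -0.30, -0.31 and -0.28 with library 20 and of -0.01, -0.07 and 0.00 without it. In the 12-library fit with Xist as a covariate, where 2 of these 3 libraries and no wild type library are high in Xist, they were -0.72, -0.71 and -0.70, each with an edgeR adjusted p of 0.405, and without library 20, the only library of this group low in Xist, -0.26, -0.42 and -0.25 (edgeR adjusted p = 0.867, 0.826 and 0.826). Gata3 went from -0.17 to -0.35 and Aqp2 from -0.34 to -0.55 when that library was left out. Hsd11b2 moved from 0.06 to -0.13, and Aqp4 from 0.01 to 0.17. With library size alone Hsd11b2 was at -0.03 and Aqp4 at -0.06. As whole groups, Aqp3, Avpr2 and Elf5 lay below wild type, 3 of 10 members where 4.77% of all genes did. Without library 20 these were 5 of 10 (Aqp2, Aqp3, Avpr2, Gata3 and Elf5) where 17% of all genes did, and 1 member, Aqp4, lay wholly above, where 16% did. The median over the members was -0.31 with all libraries, against 0.031 over all genes, and -0.20 without library 20, against -0.011. With each of the other 5 libraries left out in turn the members wholly below numbered 3 or 4, where 6.66 to 8.53% of all genes were.

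The Hoxa-het Hoxc-null kidneys against the same wild type libraries ask about loss of the Hoxc group with a single mutated Hoxa copy, with sequencing run and genotype inseparable. Elf5 and Aqp4 were lower in all 3 libraries, at 0.713 and 0.805 of wild type, and neither passed in the edgeR test of these 6 libraries. Elf5 had a log2 fold change of -0.49 (SE 0.11, edgeR adjusted p = 0.0717), and Aqp4 of -0.31 (SE 0.08, edgeR adjusted p = 0.0882). Avpr2 was lower in 3 of 3 libraries as well, at -0.37 (SE 0.14, edgeR adjusted p = 0.192), and Gata3 stood at -0.26 (SE 0.10, edgeR adjusted p = 0.19). The other 6 members lay between -0.28 for Aqp2 and -0.06 for Hsd11b2. The edgeR test called 0 of 10 members, where 1.53% of 15902 genes were lower and 0.836% higher. At an unadjusted p below 0.05 the members numbered 4 (Aqp4, Avpr2, Gata3 and Elf5), all lower, and all genes 3349 (11.2% lower and 9.88% higher). DESeq2 called Aqp4 and Elf5 (adjusted p = 0.0311 and 0.00612), 2 of 10 members lower and 0 higher, where 4.49% of 16291 genes were lower and 3.27% higher, and limma called 0 members, with 0.246% of its genes lower and 0.108% higher. Over 15 alternatives the adjusted p of Elf5 ranged from 0.00612 to 0.275 and that of Aqp4 from 0.0311 to 0.422. Aqp4 passed in 1 of them besides DESeq2, the added edgeR fit of 11 libraries without Hoxa-null Hoxc-het library 20 (adjusted p = 0.042, with 637 of 16452 genes lower). The 376 genes called over the whole table became 60 without wild type 37, 70 without wild type 55, 63 without library AhCk_110 and 99 without library AhCk_115. Scnn1a, Scnn1b and Scnn1g, at -0.13, -0.07 and -0.08, turned to 0.06, 0.02 and 0.02 without library AhCk_115, and Scnn1g to 0.01 without wild type 30. With Xist as a covariate they were -0.32, -0.28 and -0.27 (edgeR adjusted p = 0.82, 0.508 and 0.756), and -0.23, -0.22 and -0.18 when Hoxa-null Hoxc-het library 20 was left out of that fit. As whole groups Aqp4, Avpr2 and Elf5 lay below wild type, 3 of 10 members where 15.3% of all genes did. This count was 5 without wild type 30 (Gata3 and Hsd11b2 in addition), without library AhCk_38 (Aqp2 and Aqp3) or without library AhCk_110 (Scnn1b and Gata3), where 24.9, 20.8 and 18% of all genes did.

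**Figure D4:**
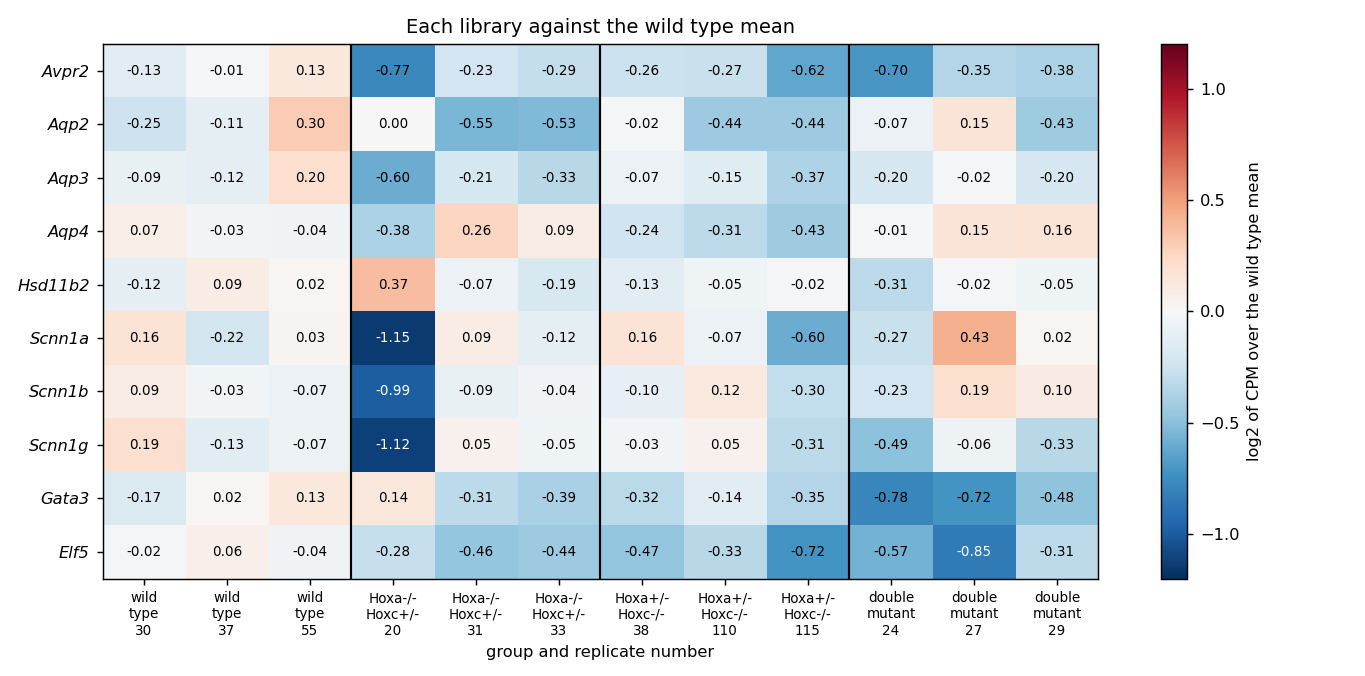
Log2 of each library's CPM over the wild type mean for each member. Elf5 is below 0 in all 9 mutant libraries (-0.28 to -0.85), Avpr2 likewise (-0.23 to -0.77), and the ENaC genes are near -1 in Hoxa-null Hoxc-het library 20 alone. The share of all genes below 0 in all 9 was not computed.

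The double mutant against the Hoxa-null Hoxc-het kidneys, all of run1008, compares groups that by their labels differ in the remaining Hoxc copy. By the study's text on the double mutants the groups differ in Hoxa11 as well. Gata3 was lower in all 3 double mutant libraries, at 0.724 of the level in Hoxa-null Hoxc-het kidneys, and Aqp3 was higher in all 3, at 1.19 times, with neither past the threshold. Gata3 had a log2 fold change of -0.47 (SE 0.18, edgeR adjusted p = 0.42) with library 20 and -0.28 (SE 0.11, edgeR adjusted p = 0.186) without it. Aqp3 had 0.25 (SE 0.13) with and 0.15 (SE 0.09) without that library. Elf5 was at -0.15 (SE 0.17) and Avpr2 at -0.04 (SE 0.21), and without library 20 at -0.09 and -0.19. Scnn1a, Scnn1b and Scnn1g went from 0.41, 0.36 and 0.02 to 0.12, 0.12 and -0.26 when library 20 was left out, and Aqp2 from 0.26 to 0.47. Aqp4 went from 0.11 to -0.05 and Hsd11b2 from -0.16 to 0.03. edgeR called 0 of 10 members and 0% of 15764 genes. The unadjusted counts at p below 0.05 were 1787 genes and 1 member, Gata3, lower where 5.44% of all genes were lower and 5.89% higher, and without library 20 they were 3739 genes (23.4% of 15986) and 2 members, Gata3 lower and Aqp2 higher. DESeq2 called 0 members and 487 genes (1.22% lower and 1.73% higher), limma 0 members and 9 genes (0.00276% lower and 0.0221% higher), and edgeR without library 20 called 687 genes and 0 members. Gata3 was wholly below, 1 of 10 members where 13.1% of all genes were, and Aqp3 wholly above, where 9.95% were. Without library 20, 3 members were wholly below (Avpr2, Scnn1g and Gata3) where 25% of all genes were, and 2 wholly above (Aqp2 and Aqp3) where 19.6% were. Without double mutant 29, 2 members were wholly below (Gata3 and Elf5, with 17.9% of all genes), and without double mutant 24, 2 were wholly above (Aqp3 and Scnn1b, with 13.3%).

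Side by side, the comparisons that share the wild type gave Gata3 -0.65 in double mutant, -0.17 in Hoxa-null Hoxc-het and -0.26 in Hoxa-het Hoxc-null kidneys. Elf5 gave -0.56, -0.39 and -0.49 in the same order, and Avpr2 -0.47, -0.41 and -0.37. Without library 20 the Hoxa-null Hoxc-het values were -0.35 for Gata3, -0.45 for Elf5 and -0.26 for Avpr2, so that the order of the Hoxa-null Hoxc-het and Hoxa-het Hoxc-null groups for Gata3 and Avpr2 depends on that library. These differences between genotypes were tested only for double mutant against Hoxa-null Hoxc-het kidneys, with the values above.

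Across the 12 libraries the 45 pairs of members had a median Pearson correlation of log2 CPM of 0.23, with 29 pairs above 0, and without library 20 a median of 0.34 with 40 pairs above 0. Within run1008 the median was 0.23 with 27 pairs above 0. Over the 12 libraries the highest values of r were those of the ENaC genes, 0.91 (Spearman rho 0.60) for Scnn1a and Scnn1b, 0.85 (0.71) for Scnn1a and Scnn1g and 0.88 (0.44) for Scnn1b and Scnn1g. Without library 20 (n = 11) these were 0.75, 0.56 and 0.53, and within run1008 (n = 9) 0.96, 0.89 and 0.88. Gata3 and Elf5 had r = 0.76 (rho 0.73, n = 12) and 0.80 without library 20, and 0.81 within run1008. Aqp2 and Aqp3 had r = 0.46 (rho 0.57) over 12 libraries and 0.84 without library 20, and within run1008 0.42. Avpr2 and Gata3 had 0.39 (rho 0.45), 0.82 without library 20 and 0.39 within run1008. The libraries fall into 4 genotypes and a pair of runs, so these correlations describe the set of libraries and carry no test.

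The 5 genes outside the members whose log2 CPM was most like the mean standardised level of the members over 12 libraries were Meox2 (r = 0.90, rho 0.80), Nat1 (r = 0.90, rho 0.84), Spink8 (r = 0.86, rho 0.81), Atp6v0d2 (r = 0.86, rho 0.87) and Cyp1a1 (r = 0.85, rho 0.86). Within run1008 (n = 9) r was 0.94, 0.90, 0.88, 0.95 and 0.90 in that order, and without library 20 (n = 11) 0.84, 0.90, 0.82, 0.84 and 0.83. These are parts of the 12 libraries by which the genes were chosen, so high values there are no separate support. The members' mean standardised level was highest in the wild type libraries 30, 37 and 55 (0.52, 0.54 and 0.93). The tests of these genes against wild type given next are therefore not independent of the choice. Meox2 belongs to the nephron progenitor list and Atp6v0d2 to the intercalated cell list described further on. Nat1 was scarce, at group means of 0.159 to 0.272 CPM. Meox2 averaged 6.66 CPM in wild type and 3.57 CPM in double mutants (log2 fold change -0.90, edgeR adjusted p = 0.0253), and Spink8 11.8 and 5 CPM (-1.24, edgeR adjusted p = 0.0324). Atp6v0d2 stood at 25.6 and 21 CPM (-0.28, edgeR adjusted p = 0.243) and Cyp1a1 at 2.72 and 2.13 CPM (-0.35, edgeR adjusted p = 0.472), and neither passed. Nat1 did not enter these tests. Summed over the members, led by Aqp2, CPM was 705, 707 and 801 in wild type, 618, 639 and 611 in Hoxa-null Hoxc-het, 692, 653 and 573 in Hoxa-het Hoxc-null and 615, 747 and 639 in double mutant libraries. The sum was thus lower in all Hoxa-null Hoxc-het and Hoxa-het Hoxc-null libraries than in any wild type library, while the double mutant libraries overlapped wild type.

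Among 23 other genes of the vasopressin and aldosterone pathways, all tested, 2 rose and 0 fell in double mutant against wild type kidneys with edgeR, where an unadjusted p below 0.05 was found for 6 higher genes and 0 lower genes, DESeq2 called 3 higher and 0 lower, and limma 0. For this list and those below, edgeR called 6.31% of all genes tested higher and 7.4% lower in this comparison. At an unadjusted p below 0.05 these shares were 15.6 and 16.8%, and with DESeq2 10 and 9.34%. Shares for the other comparisons stand with the members' counts above. Ptger4, a receptor for prostaglandin E2, rose from 6.93 to 11.1 CPM (log2 fold change 0.68, SE 0.16, edgeR adjusted p = 0.0303). Nr3c1, the glucocorticoid receptor, rose from 108 to 142 CPM (0.40, SE 0.09, edgeR adjusted p = 0.0294). Nr3c2, the mineralocorticoid receptor, named for its role in the pathway, averaged 7.07 CPM in wild type and 7.28 CPM in double mutants.

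Markers of other kidney cells moved with the double mutant genotype, and their part in the lower Gata3 and Elf5 was not tested. Of 11 stroma genes 8 rose and 0 fell with edgeR (unadjusted 9 and 0 at p below 0.05, DESeq2 8 and 0, limma 3 and 0), among them Col1a1 from 829 to 3050 CPM and Lum from 14.7 to 121 CPM. Their summed CPM, led by Col3a1, was 4516, 4622 and 4380 in wild type, 6237, 6175 and 4762 in Hoxa-null Hoxc-het, 5454, 6841 and 7486 in Hoxa-het Hoxc-null and 11692, 14204 and 12838 in double mutant libraries. Of 9 genes of the ureteric bud tip, the growing end of the same epithelium that forms the collecting duct, 6 fell and 0 rose with edgeR (unadjusted 9 and 0, DESeq2 9 and 0, limma 0 and 0), with Ret falling from 38.8 to 11.4 CPM and Wnt11 from 48.4 to 23.1 CPM. Their summed CPM, led by Spry1, was 408, 486 and 476 in wild type, 593, 435 and 385 in Hoxa-null Hoxc-het, 374, 422 and 460 in Hoxa-het Hoxc-null and 277, 225 and 330 in double mutant libraries. Of 8 nephron progenitor genes 5 fell and 0 rose with edgeR (unadjusted 7 and 0, DESeq2 5 and 0, limma 0 and 0), Gdnf from 34.9 to 10.6 CPM. Their summed CPM, led by Six2, was 222, 290 and 322 in wild type, 491, 237 and 213 in Hoxa-null Hoxc-het, 190, 252 and 239 in Hoxa-het Hoxc-null and 98.4, 72 and 184 in double mutant libraries. No gene of these 3 lists was under 1 CPM in all libraries.

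The other collecting duct lists lie nearest to the members. Of 25 genes of the ureteric trunk and collecting duct epithelium 5 fell and 0 rose in the double mutants with edgeR (unadjusted 7 lower and 2 higher, DESeq2 7 and 1, limma 0 and 0). These were Emx2 (log2 fold change -0.55), Wnt9b (-0.61), Lhx1 (-0.55), Grhl2 (-0.41) and Epcam (-0.28), and the summed CPM, led by Npnt, was 3191 to 3726 in wild type, 2873 to 3704 in Hoxa-null Hoxc-het, 3039 to 3734 in Hoxa-het Hoxc-null and 3313 to 3793 in double mutant libraries. The sum of this list thus overlapped wild type in every mutant group, whereas that of the members did so in the double mutants alone and there through library 27 alone (747 CPM, against 705 for the lowest wild type library). The members were not alone in lying below wild type, as the distal and connecting tubule list did so in Hoxa-het Hoxc-null libraries. Its summed CPM there was 575, 536 and 471, against 690, 585 and 672 in wild type. These sums were not tested. Of 12 genes of intercalated cells, the acid and base secreting neighbours of principal cells, 1 fell and 0 rose with edgeR (unadjusted 6 lower and 1 higher, DESeq2 2 and 0, limma 0 and 0), namely Atp6v1g3 (-0.63). Their summed CPM, led by Car2, was 434, 384 and 410 in wild type, 245, 358 and 398 in Hoxa-null Hoxc-het, 393, 331 and 324 in Hoxa-het Hoxc-null and 362, 468 and 334 in double mutant libraries.

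For tubule segments upstream, edgeR called 2 of 8 loop of Henle genes higher and 0 lower in the double mutants (Cldn16, 0.70, and Cldn19, 0.38; unadjusted 3 and 0, DESeq2 3 and 0, limma 0). It called 0 of 8 distal and connecting tubule genes (unadjusted 1 lower, DESeq2 1 lower, limma 0) and 0 of 12 proximal tubule genes (unadjusted 1 higher, DESeq2 0, limma 0). The summed CPM of these lists, led by Slc12a1, S100g and Lrp2, varied widely, that of the proximal tubule from 1611 to 4243 in wild type and 3287 to 5046 in double mutant libraries. In Hoxa-null Hoxc-het library 20, where the ENaC genes were lowest, it was 675, against 3648 and 4988 in the other libraries of its group, while loop of Henle genes summed to 662 and distal genes to 422, each the lowest of the 12. Of 9 urothelial genes, led by Upk3a, 2 rose and 0 fell (Upk3b, 1.61, and Krt20, 2.23; unadjusted 2 higher and 1 lower, DESeq2 2 and 1, limma 0), with sums of 66.5 to 86.9 CPM in wild type and 41.2 to 129 CPM in double mutant libraries.

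Relatives of the members were described as families. Of 9 other aquaporins, led by Aqp1, 6 passed the filter and 0 were called in the double mutants with edgeR (unadjusted 1 higher, DESeq2 1 higher, limma 0), while Aqp9, Aqp12 and Mip were under 1 CPM in every library. Of 19 relatives of ENaC, Gata3, Elf5, Hsd11b2 and Avpr2, led by Elf2, 15 were tested and Gata6 rose (0.46, edgeR adjusted p = 0.0466, from 19.8 to 27.2 CPM), with 0 falling (unadjusted 3 higher and 2 lower, DESeq2 4 and 0, limma 0). Gata2, another GATA factor, averaged 48.7 CPM in wild type and 46.1 CPM in double mutants, a log2 fold change of -0.08 (edgeR adjusted p = 0.651). Asic3, Asic5, Gata1 and Avpr1b were under 1 CPM in every library.

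In Hoxa-het Hoxc-null against wild type kidneys, edgeR called Ret lower (-0.52), Atp6v0d2 (-0.43) and Atp6v1g3 (-0.57) of the intercalated cell list lower, S100g of the distal list lower (-1.05), and Col3a1 (0.52), Lum (1.08) and Postn (0.69) of the stroma list higher. In these lists DESeq2 called 2 bud tip, 2 intercalated cell and 3 distal genes lower and 8 stroma genes higher, and an unadjusted p below 0.05 was found for 3, 3, 3 and 8. The remaining lists had 0 called there by edgeR. DESeq2 called 2 nephron progenitor genes, 1 trunk gene and 1 loop of Henle gene lower, and 1 gene each of the pathway, urothelium, aquaporin and relatives lists higher. At an unadjusted p below 0.05 there were 2 higher and 2 lower genes of the pathway list, 1 higher and 5 lower of the trunk list, 4 lower nephron progenitor genes, 1 higher and 1 lower of the loop of Henle, 1 higher each of the urothelium, aquaporin and relatives lists and 0 of the proximal tubule. limma called 0 genes of any list. In Hoxa-null Hoxc-het against wild type kidneys, where edgeR called 0 genes of any list, the most at an unadjusted p below 0.05 were 6 lower of 12 intercalated cell genes, with 0 by DESeq2 and limma. Stroma had 3 genes higher there at an unadjusted p below 0.05 and 1 higher by DESeq2, the only DESeq2 call of any list in this comparison. Without library 20 edgeR again called 0 genes of any list there, and the most at an unadjusted p below 0.05 were 6 lower intercalated cell genes, 5 higher stroma genes and 4 lower nephron progenitor genes, with 3 lower trunk genes. In double mutant against Hoxa-null Hoxc-het kidneys edgeR also called 0 genes of any list, and the most at an unadjusted p below 0.05 were 8 bud tip genes lower, 7 stroma genes higher and 5 nephron progenitor genes lower, with 3, 7 and 1 by DESeq2 and 0 by limma. The trunk list had 2 higher and 2 lower there, with 0 by DESeq2. Without library 20 edgeR called 6 stroma genes higher (Col1a1, Col1a2, Col3a1, Dcn, Lum and Postn), 1 bud tip gene lower (Slco4c1) and 0 genes of the other lists, and at an unadjusted p below 0.05 there were 9 stroma genes higher, 7 bud tip genes lower, 4 trunk genes higher and 5 lower, 4 genes of the relatives list higher, 3 pathway genes higher and 1 lower, 2 each of the loop of Henle and urothelium lists higher, 2 each of the nephron progenitor and proximal tubule lists lower and 1 intercalated cell gene higher.

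**Figure D5:**
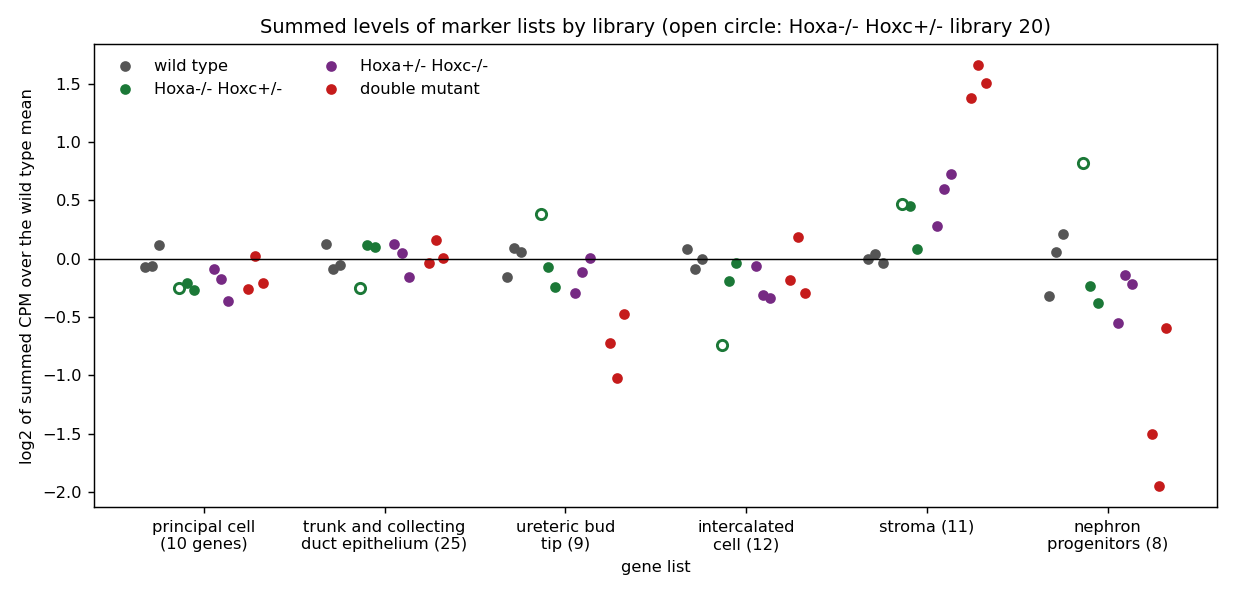
Log2 of the summed CPM over its wild type mean, by library, for the members and the trunk, bud tip, intercalated cell, stroma and nephron progenitor lists. In the double mutants the stroma list is above wild type in 3 of 3 libraries and the bud tip and nephron progenitor lists are below it in 3 of 3, while the sum of the 10 members overlaps wild type.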

How the data were processed

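The authors deposited an expected count for each of 36186 genes in 12 libraries of whole kidney, from paired-end reads of 75 bases aligned to mm10 with multiply aligning reads removed, and a table of log2 values normalized by the authors in which each gene's median is 0. The study's methods name Strand NGS as the analysis software, and the aligner is not given in the sources used here. Expected counts were rounded to whole numbers and tested with the edgeR 4.0.16 quasi-likelihood test in R 4.3.3. Each comparison used its 6 libraries, filterByExpr with its default settings, scaling by the trimmed mean of M values (TMM), Benjamini-Hochberg adjustment over all genes tested and a threshold of 0.05. Standard errors are the size of the log2 fold change over the square root of F, and 95% intervals use the t quantile at the test's degrees of freedom, so that they hold the spread between libraries. CPM was scaled by TMM over all 12 libraries, and CPM per kilobase used the union of GENCODE exons. Depth was 28616877 to 47067903 counts on genes, and 3 counts, the limit that a count of 0 allows, equal 0.0637 to 0.105 CPM. These floors cover counting error only. No label says whether replicates are separate embryos or litters, so the p-values measure the spread between these samples. Over all 66 pairs of libraries the lowest chi-square per degree of freedom was 13.8, so no pair were duplicates of each other.

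The members and gene lists were chosen with earlier results of these data known. Named genes were all 10 members, the 6 targeted Hox genes, at most the 5 genes of each list with the most reads and those past the threshold, genes under 1 CPM in all libraries, Nr3c2 for its role, and the 5 genes most correlated with the members. Arhgap4, Gm13256 and 9230102O04Rik were named for their position, and Xist for its use as a covariate. A gene of the pathway list, and the list's summed level, are not reported here. Some genes stand in more than 1 list (Ptger3, Ehf, Aqp1 and Aqp6), and Ptger3 is named for that alone. Alternatives were DESeq2 1.42.0, limma 3.58.1 on the deposited log2 values of all 36186 entries, RLE size factors, library size alone, all genes with at least 1 count, fits of 12 libraries or of the 9 of run1008, Xist as a covariate, and each library left out in turn. Fits of 11 libraries, of 11 with Xist and of the 8 of run1008 without Hoxa-null Hoxc-het library 20 were chosen after seeing the data. The edgeR settings were tested on simulated data, with no outcome reported here. Promoter sequences came from RefSeq (GRCm38.p6).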

Additional observations from a re-analysis of the deposited data

How the results depend on the processing

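DESeq2 and limma changed test, scaling and filter together, and the Xist fit also used all 12 libraries. For double mutant against wild type, 2 members were called with edgeR, 3 with library size only, 3 with DESeq2, 0 in the fit of the 9 libraries of run1008, 1 with Xist as a covariate (Avpr2, in place of Gata3 and Elf5) and 0 with limma, and 0 to 2 when each library was left out in turn. Fits that leave out Hoxa-null Hoxc-het library 20 were chosen after seeing the data. They called 3 members each (Gata3, Elf5 and Avpr2) with 11 libraries, with 11 and Xist and with the 8 of run1008, and 3224, 1685 and 3024 genes. In the run1008 fit the edgeR adjusted p was 0.0575 for Gata3 and 0.0613 for Elf5. Over all genes the count of 2171 was 2391 with library size only, 3280 with DESeq2, 1190 with 12 libraries in the fit, 690 with run1008, 1.0e+03 with Xist (416 higher and 592 lower) and 152 with limma, and 535 to 3386 with a library left out. Genes lower numbered 1172 of 15839 with edgeR, 1649 of 15839 with library size only and 1583 of 16954 with DESeq2. With run1008 they numbered 371 of 16034, with Xist 592 of 16260 and with limma 71 of 36186. For Hoxa-null Hoxc-het against wild type, 0 members were called by edgeR under any alternative, and the gene count of 0 was 18 with DESeq2, 2 with 12 libraries, 1 with limma, 4, 0 and 4 in the added fits without library 20 (11 libraries, 11 with Xist, 8 of run1008), and 0 to 8 with a library left out. For Hoxa-het Hoxc-null against wild type, DESeq2 called 2 members where edgeR called 0, and the added fits of 11 libraries called 1 (Aqp4) and, with Xist, 0, the range with a library left out being 0 to 0. The 376 genes became 1265 with DESeq2, 149 with 12 libraries, 134 with Xist, 128 with limma, 976 and 336 in the added fits of 11 libraries without and with Xist, and 60 to 549 with a library left out. For double mutant against Hoxa-null Hoxc-het, 0 members were called under every alternative run, 0 to 0 with a library left out, and the gene count of 0 was 487 with DESeq2, 1 with all genes of at least 1 count, 540 with 12 libraries, 181 with run1008, 650 with Xist, 9 with limma, 1203, 549 and 970 in the added fits (11 libraries, 11 with Xist, 8 of run1008) and 0 to 687 with a library left out. The causes of these changes were not tested. Gata3 kept its sign in 17 of 17 alternatives for double mutant against wild type, and so did Elf5, Avpr2, Scnn1g, Aqp3 and Hsd11b2, whereas Aqp2, Aqp4, Scnn1a and Scnn1b each changed sign in at least 1. No called member reversed its direction under an alternative. The scaling of libraries moved the median log2 fold change of all genes by less than 0.1. No paired analysis was possible because the groups share no replicate numbers. With 3 libraries a group, the intervals are wide.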
